A study of Mus musculus with 7 samples.

Results

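The 8 genes described here are Vcam1, Madcam1 and Icam1, which encode ligands that leukocytes bind on vessel walls, Pecam1, Cdh5 and Tek, which encode general proteins of endothelial cells, and Edn1 and Ednrb, an endothelin precursor and an endothelin receptor. They were chosen by symbol, and every probe set annotated with 1 of these symbols was followed over all 7 arrays. That gave 12 probe sets for 8 of the 8251 genes that the array represented with a single symbol. A probe set is a group of short oligonucleotides on the array that together report on 1 transcript. The probe sets of 3 genes (Vcam1, Madcam1 and Edn1) reached a signal of 100 in the highest pool, as did 4316 genes in all, and 5 genes did not reach it.

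The arrays measured colon RNA of female CD-1 outbred mice, aged 10 to 12 weeks at the start. The mice received 6 enemas of TNBS, a hapten that provokes colitis, dissolved in ethanol, or belonged to saline groups, for which 6 enemas are also listed. No mice given ethanol alone are among the samples, so TNBS and its vehicle cannot be told apart. TNBS_w6 pooled 6 mice killed 3 days after the last enema, TNBS_w8 pooled 4 mice at 2 weeks, TNBS_w10 pooled 5 mice at 4 weeks and TNBS_w12 pooled 4 mice at 6 weeks after the enemas. Saline_w6 pooled 5 mice killed 3 days after the last enema, as in TNBS_w6, and was read on 2 arrays. These were taken from the labels as repeats of 1 RNA pool and averaged as 1 sample. Saline_w10 pooled 4 mice, 2 killed at 2 weeks and 2 at 4 weeks. Each group was therefore a single pool of outbred animals, and the week 12 pool had no saline pool of its own time. The series design sets TNBS_w6 against saline_w6 and each later TNBS pool against saline_w10, and these pairs are called matched here. The tissue lay 4 ± 0.5 cm above the anus, with no separation of vessels or of any other cells. In such bulk RNA, fewer cells of a type and less RNA per cell cannot be told apart.

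Leukocytes leave the blood by rolling on selectins, being activated by chemokines, and holding fast through integrins to ligands of the immunoglobulin superfamily on endothelium. VCAM-1 is bound mainly by the integrin alpha 4 beta 1, ICAM-1 by beta 2 integrins such as LFA-1, and MAdCAM-1, which marks venules of the gut lamina propria and of Peyer's patches, by the gut homing integrin alpha 4 beta 7. PECAM-1, VE-cadherin (Cdh5) and the angiopoietin receptor Tie2 (Tek) are carried by endothelium whether or not it is inflamed. Endothelin 1, made from the Edn1 product, is a strong vasoconstrictor that endothelial cells release and epithelial cells can also make, and the type B receptor (Ednrb) is needed for the enteric nervous system to form.

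Signals are in the authors' units, with every array brought to a target mean of 150. Differences are of log2 signals after values under 50 were set to 50, since 45.4% to 49.2% of probe sets lay below that floor on each array. The 2 arrays of saline_w6 gave the only measure of array error: for genes with a mean signal between 50 and 250, 95% differed by less than 0.68 on the log2 scale (1.60-fold, 2417 genes). If both arrays held the same pool, as the labels read, this limit covers labelling and array, not the mice. The beta actin 3′ to 5′ signal ratio, a sign of RNA quality, was 1.14 to 1.24 on the 3 week 6 arrays and 0.798 to 0.818 on the 4 later arrays, so it separated week 6 from later pools of both treatments. Its part in any difference between week 6 and later pools was not tested.

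**Figure D1:**
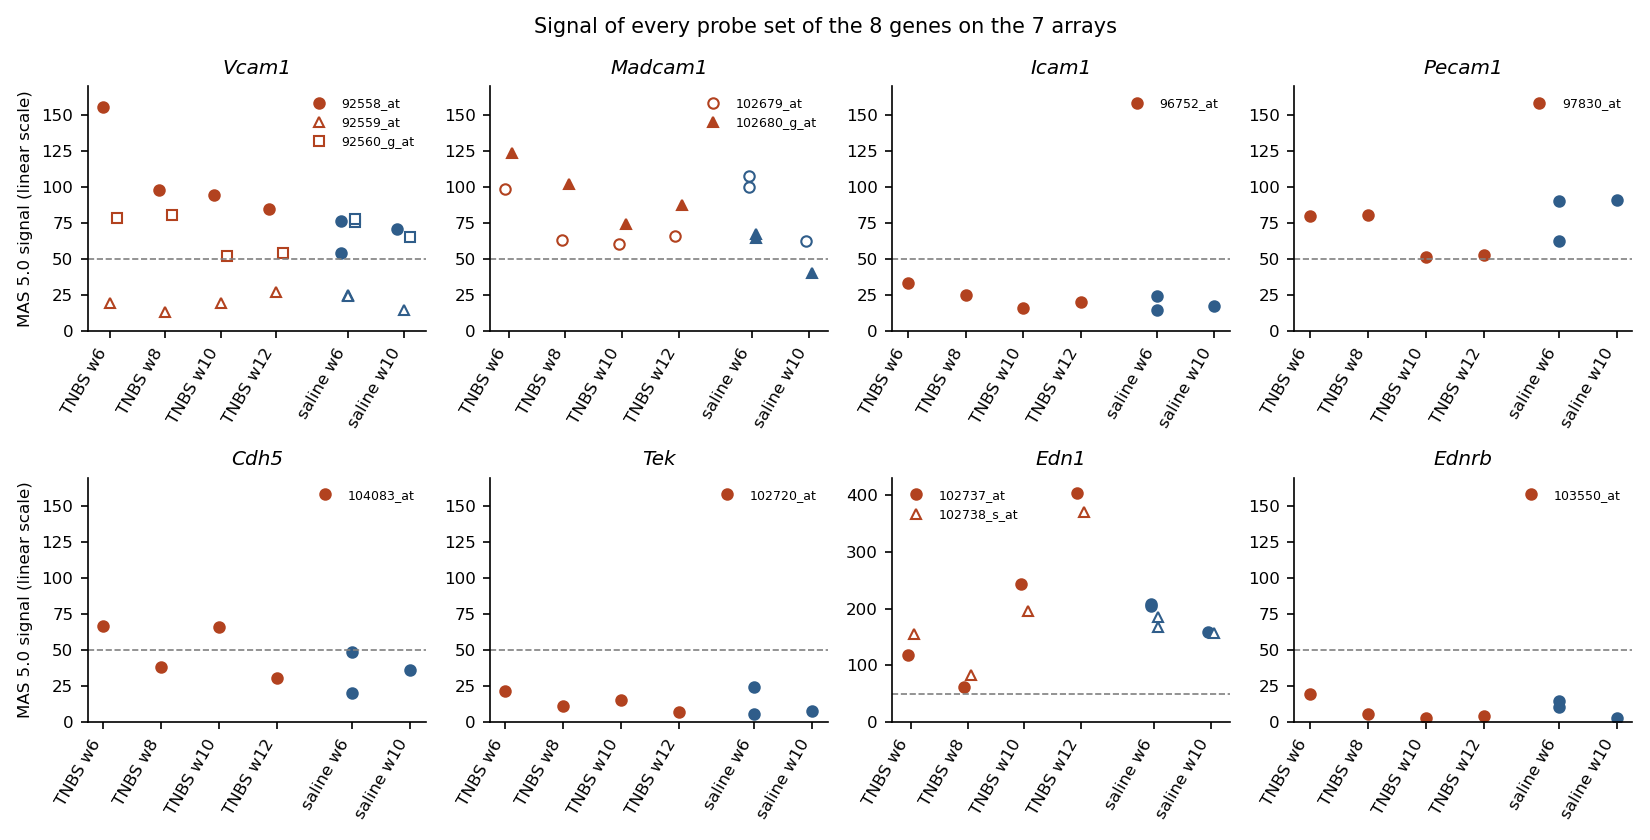
Signal of every probe set of the 8 genes on each of the 7 arrays (vertical axis, linear scale, units scaled to 150 per array). TNBS arrays are red and saline arrays blue, filled points mark the probe set that represents its gene, and the dashed line is the floor of 50. One probe set each of Vcam1 and Madcam1 lay higher on all TNBS arrays than on all saline arrays, Edn1 spanned 62.8 to 403.3, and Icam1, Tek and Ednrb stayed under the floor on every array.

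Vcam1 was highest 3 days after the last enema. Its probe set 92558_at had a signal of 155.6 in TNBS_w6, 97.7 in TNBS_w8, 94.1 in TNBS_w10 and 84.4 in TNBS_w12, against 76.2 and 53.8 on the arrays of saline_w6 and 70.7 in saline_w10. All TNBS arrays lay above all saline arrays, and the order of the TNBS pools ran from the earliest to the latest. The distance between each pool and the next in that order stayed within the repeat-array limit, the widest being the 0.67 between TNBS_w6 and TNBS_w8.

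TNBS_w6 was 2.43-fold above saline_w6 for this probe set (1.28 on the log2 scale), the 64th highest difference of 4316 genes. Over all genes 2.55% were higher by 2-fold or more at week 6 and 0.996% were lower by as much, and Vcam1 was the 1 gene of the 8 in either count. Such counts cover the 3 genes past the signal minimum. The difference was 1.53 against the second saline_w6 array alone and 1.03 against the first alone, and 1.14 against saline_w10. The later TNBS pools were 1.38-fold (week 8), 1.33-fold (week 10) and 1.19-fold (week 12) above saline_w10, each within the repeat-array limit. Vcam1 passed the signal minimum through TNBS_w6 alone, the pool in which it was highest, so a gene kept in this way had to stand high there.

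The other probe sets of Vcam1 did not show this order. Probe set 92560_g_at had signals of 78.1, 80.3, 52.0 and 54.4 in TNBS_w6, TNBS_w8, TNBS_w10 and TNBS_w12, against 75.3 and 78.0 on the saline_w6 arrays and 65.3 in saline_w10. The groups overlapped fully, with differences of 0.03, 0.30, -0.33 and -0.26 on the log2 scale at weeks 6, 8, 10 and 12. Probe set 92559_at stayed between 13.2 and 27.1, under the floor on every array. Over the 6 pools, 92558_at and 92560_g_at had r = 0.21, so the higher Vcam1 signal with TNBS rests on 1 of its 3 probe sets.

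Madcam1 was higher with TNBS at all 4 times for 1 of its 2 probe sets. Probe set 102680_g_at had signals of 123.7 in TNBS_w6, 102.3 in TNBS_w8, 73.9 in TNBS_w10 and 87.5 in TNBS_w12, against 67.4 and 64.2 on the saline_w6 arrays and 40.5 in saline_w10. The TNBS and saline arrays did not overlap. Among all genes, 4.94% lay higher on every TNBS array than on every saline array, and Vcam1 and Madcam1 were both among them.

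At week 6 the Madcam1 difference was 1.88-fold (0.91 on the log2 scale, the 133rd highest). Because saline_w10 lay under the floor, the later differences are lower bounds: at least 2.05-fold higher at week 8, at least 1.48-fold at week 10 and at least 1.75-fold at week 12. Madcam1 was the 1 gene of the 8 that was at least 2-fold higher at week 8, a share that reached 1.53% over all genes. It passed the signal minimum through TNBS_w6 and TNBS_w8. The saline pools also differed by at least 0.40 on the log2 scale, with saline_w6 the higher.

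The second Madcam1 probe set, 102679_at, which the platform annotation ties to the same database sequence, gave no such difference. It had signals of 98.5, 63.3, 60.5 and 65.6 in the TNBS pools of weeks 6, 8, 10 and 12, against 100.1 and 107.3 on the saline_w6 arrays and 62.7 in saline_w10. All 3 week 6 arrays were higher than the 4 later arrays, whatever the treatment, and the TNBS differences were -0.07, 0.01, -0.05 and 0.07 on the log2 scale. The 2 probe sets had r = 0.26 over the 6 pools. With values held at the floor, the order of the Madcam1 pools had no step beyond the repeat-array limit for either, but the step to saline_w10 for 102680_g_at is a lower bound.

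The promoter of Madcam1 is shown because NF-kappa-B, which inflammatory cytokines activate, is a known regulator of endothelial adhesion genes. The window covers 250 bases before and 50 after the RefSeq gene start on GRCm38.p6 at chr10:79664309-79664608, plus strand, and capitals mark matches to the NF-kappa-B motif.
Madcam1: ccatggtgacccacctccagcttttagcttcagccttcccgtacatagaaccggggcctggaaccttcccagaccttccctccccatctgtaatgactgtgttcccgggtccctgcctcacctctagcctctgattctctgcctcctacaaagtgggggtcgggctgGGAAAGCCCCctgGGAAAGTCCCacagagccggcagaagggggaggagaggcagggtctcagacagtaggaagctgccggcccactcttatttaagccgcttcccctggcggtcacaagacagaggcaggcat
It held 2 matches to the NF-kappa-B motif, both on the minus strand, which began 83 and 70 bases upstream of the start, and the ETS core GGAA overlapped each of them. Of 32851 RefSeq promoter windows of the same 300 bases, searched on both strands, 8.46% held at least 1 such match and 1.22% held 2 or more. AP-1 (TGANTCA) and GATA (GATAA) had no match in this window. The NF-kappa-B motif was searched as GGGRNNYYCC, where R is a purine, Y a pyrimidine and N any base. Sites that depart from the searched strings were not counted in any window. A match is a string of letters and does not show that a factor bound there.

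Icam1, the third leukocyte ligand, could not be followed. Its probe set 96752_at had signals of 33.0, 24.8, 16.2 and 20.4 in TNBS_w6, TNBS_w8, TNBS_w10 and TNBS_w12, against 14.3 and 24.5 on the saline_w6 arrays and 17.2 in saline_w10. The TNBS_w6 array was the highest of the 7 and lay below the floor of 50, so no difference can be given. Its promoter window held no exact match to the NF-kappa-B, AP-1 or GATA string. Looser forms of these sites were not searched, so the window may still hold one.

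Of the 3 general endothelial genes, Pecam1 could be followed on all 7 arrays, Cdh5 on 2 of them and Tek on none. Pecam1 (97830_at), a molecule of endothelial junctions also carried by platelets and leukocytes, had signals of 79.8 in TNBS_w6, 80.2 in TNBS_w8, 51.3 in TNBS_w10 and 52.8 in TNBS_w12, against 62.4 and 90.4 on the saline_w6 arrays and 91.2 in saline_w10. TNBS_w10 and TNBS_w12 were the lowest arrays, and the groups overlapped through the other TNBS pools. TNBS_w10 was 1.78-fold and TNBS_w12 1.73-fold below saline_w10 (-0.83 and -0.79 on the log2 scale), whereas weeks 6 and 8 differed by 0.09 and -0.19. Against saline_w6 instead, TNBS_w10 and TNBS_w12 differed by -0.55 and -0.51, within the repeat-array limit, and both signals lay close to the floor. The saline_w6 arrays alone differed by 0.53 for Pecam1, which did not reach the signal minimum in any pool.

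Cdh5 (104083_at), the cadherin that seals endothelial junctions, had signals of 66.8, 38.6, 66.5 and 31.1 in TNBS_w6, TNBS_w8, TNBS_w10 and TNBS_w12, against 48.8 and 20.6 on the saline_w6 arrays and 36.6 in saline_w10. Only TNBS_w6 and TNBS_w10 lay above the floor, at least 1.34-fold and at least 1.33-fold above their saline pools, which were at the floor, so the size of these differences is not known. Tek (102720_at) stayed between 5.9 and 24.3 over the 7 arrays. Tek was thus under the floor everywhere, and these arrays say nothing on whether its RNA differed.

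Edn1 was lower than saline at week 8 after TNBS and higher at week 12, and its values at weeks 6 and 10 were less firm. Probe set 102737_at had signals of 118.0 in TNBS_w6, 62.8 in TNBS_w8, 243.3 in TNBS_w10 and 403.3 in TNBS_w12, against 208.8 and 204.1 on the saline_w6 arrays and 158.0 in saline_w10. The saline arrays sat between the 2 lower and the 2 higher TNBS pools. TNBS_w6 was 1.75-fold lower (-0.81 on the log2 scale), TNBS_w8 2.52-fold lower (-1.33), TNBS_w10 1.54-fold higher (0.62) and TNBS_w12 2.55-fold higher (1.35) than the saline pool it was set against. The week 10 difference was within the repeat-array limit. The week 6 difference was -0.42 against saline_w10, and -0.11 or -0.25 with 1 saline_w6 array left out, where the second probe set stands for the gene.

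Among 4316 genes, the Edn1 difference was the 12th lowest at week 8 and the 9th highest at week 12. Edn1 was the 1 gene of the 8 counted as at least 2-fold lower at week 8, where 1.78% of genes were, and the 1 gene counted as at least 2-fold higher at week 12, where 0.718% were. None of the 3 genes past the minimum was at least 2-fold lower at week 12 (0.88% of all genes). None was past 2-fold in either direction at week 10, where 0.834% of genes were higher and 0.649% lower. Set against saline_w6 instead of saline_w10, TNBS_w12 was higher by 0.97 on the log2 scale, short of 2-fold. Between saline_w10 and saline_w6, 1.81% of genes differed at least 2-fold either way, as did 0.718% between the 2 saline_w6 arrays, and none of the 3 genes did so in either pair.

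The second Edn1 probe set, 102738_s_at, followed the same order, with r = 0.96 over the 6 pools. Its signals were 156.0, 84.1, 195.1 and 370.0 in TNBS_w6, TNBS_w8, TNBS_w10 and TNBS_w12, against 185.1 and 168.1 on the saline_w6 arrays and 157.4 in saline_w10. TNBS_w8 was 1.87-fold below and TNBS_w12 2.35-fold above saline_w10, and weeks 6 and 10 differed by -0.18 and 0.31 on the log2 scale, within the repeat-array limit. For both probe sets the pools ran, from high to low, TNBS_w12, TNBS_w10, saline_w6, saline_w10, TNBS_w6 and TNBS_w8. Only the first step (0.73 and 0.92) and the last (0.91 and 0.89) exceeded the limit, so the 4 pools between could not be ordered step by step.

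The Edn1 promoter is shown because it had the widest range of signals of the 8 genes above the floor. The window is chr13:42301226-42301525 on the plus strand of GRCm38.p6, from RefSeq, and capitals mark the GATA motif.
Edn1: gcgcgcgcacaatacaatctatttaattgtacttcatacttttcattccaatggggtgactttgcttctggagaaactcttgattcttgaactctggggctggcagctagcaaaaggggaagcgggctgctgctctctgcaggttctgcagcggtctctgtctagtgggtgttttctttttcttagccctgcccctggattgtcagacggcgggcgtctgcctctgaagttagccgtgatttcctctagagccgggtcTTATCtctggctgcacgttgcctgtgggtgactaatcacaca
It held 1 match to GATAA, on the minus strand 8 bases after the RefSeq gene start, a motif found in 25.4% of all windows. There was no exact match to the NF-kappa-B motif or to the AP-1 motif TGANTCA, which 7.81% of windows held. Looser forms of these sites were not searched, so the window may still hold one. Of the other genes, Ednrb had 1 NF-kappa-B match and Tek 1 GATA match in their windows, and the ETS core was in 96.0% of all windows.

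Ednrb (103550_at) had signals of 19.6, 5.7, 3.0 and 4.7 in TNBS_w6, TNBS_w8, TNBS_w10 and TNBS_w12, against 14.9 and 10.5 on the saline_w6 arrays and 2.8 in saline_w10. All were below the floor, so no difference can be given for the receptor. Of 8 genes of the endothelin system, 6 were on the array and 2 passed the signal minimum, Edn1 and Ece1, the protease that cleaves the precursor to active endothelin. Ece1 had 291.8, 316.7, 428.3 and 381.5 in TNBS_w6, TNBS_w8, TNBS_w10 and TNBS_w12, against 392.4 and 446.0 on the saline_w6 arrays and 333.2 in saline_w10. Its differences were -0.52, -0.07, 0.36 and 0.20 on the log2 scale at weeks 6, 8, 10 and 12, in the same directions as Edn1 and each within the repeat-array limit. Edn2, a further endothelin precursor, and Mme, a protease that degrades endothelins, were under the floor on every array.

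**Figure D2:**
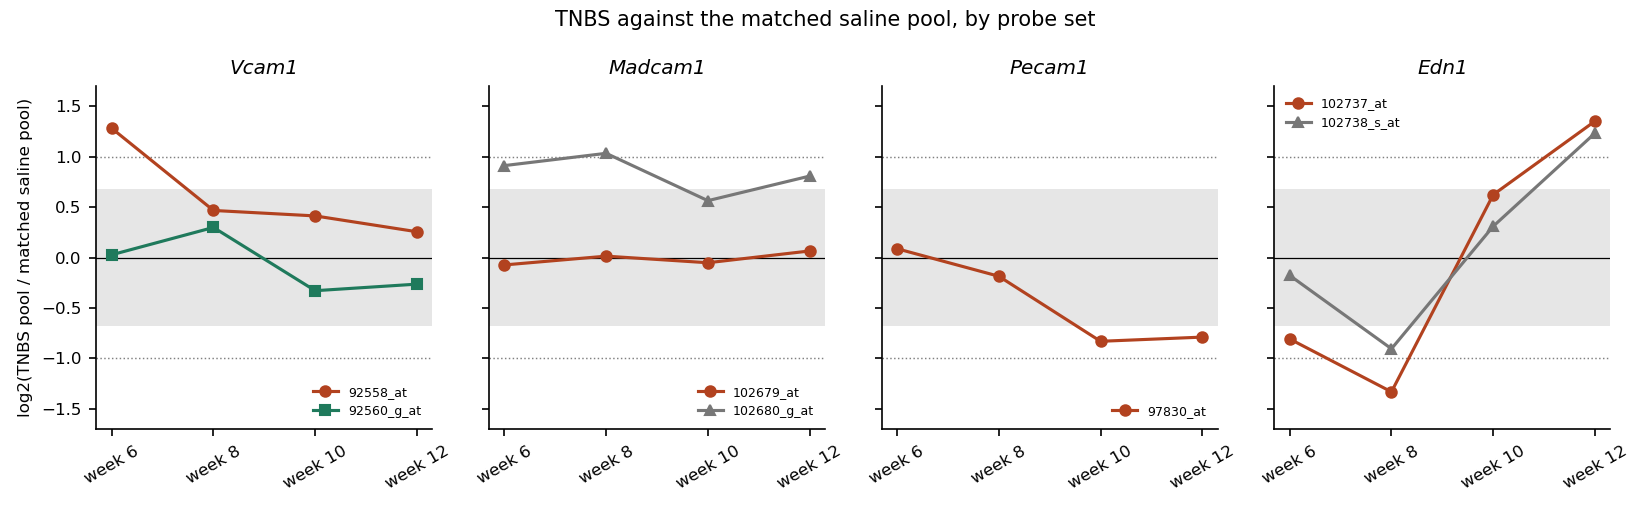
TNBS minus matched saline (vertical axis, log2 units) at weeks 6, 8, 10 and 12 for each probe set of Vcam1, Madcam1, Pecam1 and Edn1 that rose above the floor. The grey band is the repeat-array limit of ±0.68 the dotted lines mark 2-fold, and the Madcam1 102680_g_at values of weeks 8 to 12 are lower bounds. Both Edn1 probe sets lie below the band at week 8 and above it at week 12, and the probe sets of Vcam1 and of Madcam1 part from each other.

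Across pools, none of the 3 genes past the signal minimum passed the adjusted test, and the other 5 were not in it. With limma, the 4 TNBS pools were set against both saline pools, with the time of the control (week 6 or later) as a covariate. TNBS pools of different times stand in for replicates there, so the p-values reflect how pools vary, change over time included. The Vcam1 difference was 0.74 ± 0.27 (SE, log2 scale), higher in 4 of 4 comparisons, with an adjusted p of 0.887. Its unadjusted limma p was 0.0246. Madcam1 differed by 0.85 ± 0.25 (SE), higher in 4 of 4, with an adjusted p of 0.887. Its unadjusted limma p was 0.00984. Edn1 differed by -0.19 ± 0.66 (SE), higher in 2 of 4, with an adjusted p of 0.982.

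Over all 4316 genes, 0% passed the adjusted threshold and 5.1% had an unadjusted p under 0.05. The smallest limma adjusted p was 0.166, for Cd53, a leukocyte tetraspanin. Without TNBS_w6 the Vcam1 difference was 0.38 and that of Madcam1 0.80. Without saline_w10, which lay under the floor for Madcam1, the Madcam1 difference was 0.53, and its unadjusted limma p was 0.206. As a feature of its own, the second Madcam1 probe set differed by -0.02.

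Whether the TNBS difference at week 6 departed from the mean of the later ones was tested with a limma interaction term. Vcam1 was 1.28 at week 6 and 0.38 later, a gap of 0.90 ± 0.42 (SE) with an adjusted p of 0.999. Its unadjusted limma p was 0.0793. The gap was 0.11 ± 0.48 for Madcam1 and -1.02 ± 1.56 for Edn1 (SE), neither past the unadjusted threshold. With single pools or arrays left out the Edn1 gap ran from -1.79 (without TNBS_w8) to -0.32 (without the first saline_w6 array). Of all genes 0% passed the adjusted limma test and 1.85% the unadjusted one. An early Vcam1 peak was thus not shown to differ from the later pools.

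Among 19 genes listed as leukocyte homing ligands, selectins and addressins, 16 were on the array and 6 passed the signal minimum. Of these, 1 (Vcam1) was at least 2-fold higher at week 6 and none lower, beside 2.55% and 0.996% of all genes. None of the 6 passed the limma test across pools. Their median differences were 0.18, 0.19, 0.29 and 0.30 on the log2 scale at weeks 6, 8, 10 and 12, beside -0.02, -0.07, -0.00 and 0.00 over all genes. Vcam1, Madcam1 and Cd99l2 passed the minimum through TNBS pools alone, so the filter itself favoured higher values with TNBS in these medians. Besides Vcam1 and Madcam1, Cd99l2, which helps leukocytes cross the vessel wall, differed by 0.35 at week 6, with a TNBS_w6 signal of 117.7 that lay between the saline_w6 arrays at 125.7 and 68.1. F11r, a junction molecule of endothelium and epithelium, differed by -0.34. E-selectin (Sele), P-selectin (Selp) and Icam2 were under the floor on every array, together with Icam1, Podxl, Chst2 and Ackr1.

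Of 14 leukocyte partners of these ligands, 13 were on the array and 4 passed the minimum, none of them past 2-fold in any comparison and none called across pools. At week 6 Itgax differed by 0.50, Itgb1 by 0.25, the selectin ligand Selplg by 0.12 and Itgb7, the beta chain of the gut homing integrin, by 0.03. Itgax passed the minimum through TNBS_w6 alone, so the filter favoured a higher value there. Itgb7 had signals of 150.0, 105.4, 129.8 and 133.0 in TNBS_w6, TNBS_w8, TNBS_w10 and TNBS_w12, against 146.1 and 146.9 on the saline_w6 arrays and 154.6 in saline_w10, so it did not follow the Madcam1 probe set that was higher with TNBS. The integrin chains Itga4, Itgal and Itgb2 were under the floor everywhere.

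The general endothelial list had 41 genes, 34 of them on the array and 4 past the minimum, with 15 under the floor on every array. The 4 differed at week 6 by 0.31 (Eng, a co-receptor for TGF-beta), -0.18 (Acvrl1, its partner receptor), 0.13 (Nrp1) and -0.03 (Mcam), the last pair with TNBS_w6 between both saline_w6 arrays. Their median differences were 0.05, -0.28, -0.13 and -0.15 at weeks 6, 8, 10 and 12. None of the 4 genes was past 2-fold and none was called. Nrp1, which entered these medians, passed the minimum through TNBS_w6 alone. The summed signal of the 34 genes was 1976 in TNBS_w6 and 1421 to 1553 in the later TNBS pools, against 1831 and 1974 on the saline_w6 arrays and 1621 in saline_w10. All 3 week 6 arrays thus lay above all later arrays, as with the second Madcam1 probe set.

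Of 18 listed cytokines, receptors and genes of the NF-kappa-B system, 17 were on the array and 10 passed the minimum. Not all of them induce adhesion molecules. Il1b, an inducer of endothelial adhesion molecules, had a signal of 135.2 in TNBS_w6 and 3.8 to 10.0 in the later TNBS pools, against 7.2 and 2.8 on the saline_w6 arrays and 4.1 in saline_w10. It was at least 2.70-fold higher at week 6, the 1 gene of the 10 past 2-fold, and passed the minimum through that pool alone. Over all genes 2.55% were higher by 2-fold or more at week 6 and 0.996% lower. Ltb, which maintains lymphoid tissue, was 1.83-fold and Tnfrsf1b, a TNF receptor, 1.78-fold higher at week 6, and Relb, an NF-kappa-B subunit, 1.64-fold lower. The median over the 10 was -0.10, and none was called across pools. Tnf, Il1a and Ifng were under the floor on every array.

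**Figure D3:**
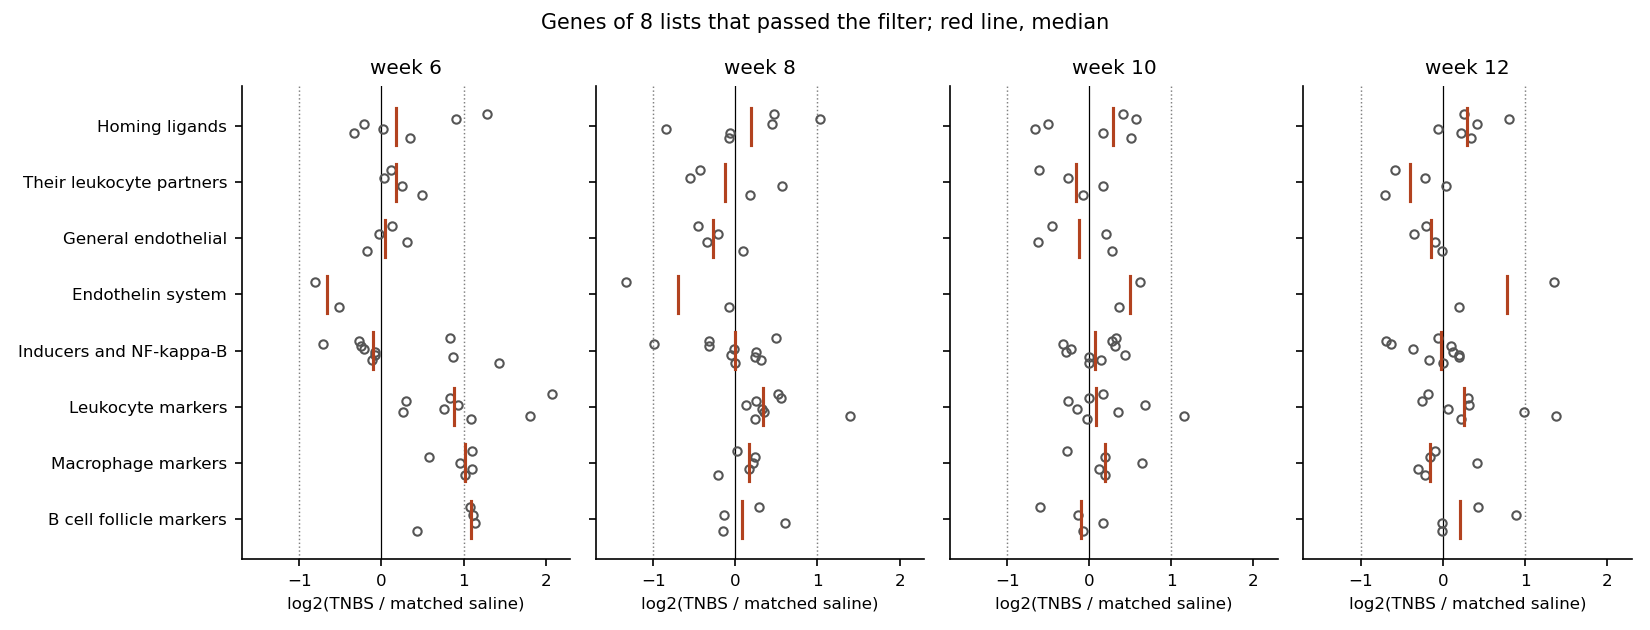
TNBS minus matched saline (horizontal axis, log2 units) at each time for the genes past the signal minimum in each of 8 lists, 1 point a gene, with the list's median as a red line and 2-fold as dotted lines. At week 6 the leukocyte, macrophage and B cell follicle medians lie between 0.88 and 1.09, and the medians of homing ligands and general endothelial genes lie at 0.18 and 0.05. Some genes of these lists passed the signal minimum through TNBS pools alone.

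Leukocyte markers moved with the higher Vcam1 signal at week 6. The summed signal of 10 leukocyte markers was 3058 in TNBS_w6 and 1743 to 1874 in the later TNBS pools, against 1583 and 1652 on the saline_w6 arrays and 1396 in saline_w10. Of the 8 past the minimum, 3 were at least 2-fold higher at week 6, beside 2.55% of all genes: Tyrobp (4.22-fold), Cd53 (3.49-fold) and Cd52 (2.12-fold), with a list median of 0.88 on the log2 scale, and Fcer1g was under the floor on every array. Ptprc, at 0.84, entered that median and passed the minimum through TNBS_w6 alone. Macrophage markers summed to 5567 in TNBS_w6 and to 3049.6 to 3715 in the later TNBS pools, against 2669.5 and 3093 in saline_w6 and 2801 in saline_w10, and 3 of 5 were past 2-fold at week 6, beside the same 2.55%, with the defining marker Adgre1 under the floor on every array. Cd14 had the largest signal in the macrophage sums and was not among the 3 genes past 2-fold. It had 3292 in TNBS_w6 and 1954.5, 2639 and 2246 in TNBS_w8, TNBS_w10 and TNBS_w12. The saline_w6 arrays had 1928.5 and 1502, and saline_w10 had 1684. The part of the leukocyte and macrophage markers in the Vcam1 difference was not tested.

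Markers of B cell follicles and follicular dendritic cells, which also carry VCAM-1, and whose lymphoid tissue holds MAdCAM-1 venules, summed to 1225 in TNBS_w6 and to 593 to 841 in the later TNBS pools, against 656 and 716 in saline_w6 and 696 in saline_w10. In the same comparison, where 2.55% of all genes were past 2-fold, the B cell chemokine Cxcl13 was 2.20-fold, the Fc receptor Fcer2a at least 2.16-fold and Ms4a1 (CD20) 2.11-fold higher, 3 of the 4 past the minimum. Cxcl13 and Fcer2a passed it through TNBS pools alone, TNBS_w6 among them, and the defining follicular marker Cr2 was under the floor on every array. Their part in the Vcam1 and Madcam1 differences was not tested.

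The endothelial markers themselves were weak. Of 12 listed, 10 were on the array and 1 (Eng) passed the minimum, and the defining markers Tek, Kdr and Flt1 were under the floor on all 7 arrays. Their summed signal was 820 in TNBS_w6 and 537 to 610 in the later TNBS pools, against 738 and 753 in saline_w6 and 616 in saline_w10. Endothelium was therefore read here mostly near the floor of 50.

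For Edn1, epithelial and muscle markers gave a different order. Epithelial markers summed to 16676, 22891, 16144 and 14854 in TNBS_w6, TNBS_w8, TNBS_w10 and TNBS_w12, against 17827 and 16654 in saline_w6 and 18599 in saline_w10. Smooth muscle markers summed to 12567, 17609, 14910 and 11321 in the same TNBS pools, against 14256 and 13942 in saline_w6 and 14975 in saline_w10. Both sums were highest in TNBS_w8 and lowest in TNBS_w12, where Edn1 was lowest and highest. The keratins Krt8, Krt19 and Krt20 had the largest signals in the epithelial sum, and not every marker had its order. Epcam had 1024 in TNBS_w8 and 1054 in TNBS_w12, and Cdh1 139 and 142. Of the muscle markers, Myh11 was highest in saline_w10 and lowest in TNBS_w6. The part of these markers in the Edn1 differences was not tested. Markers of enteric neurons and glia, whose precursors need Ednrb, summed to 338 in TNBS_w6 and 259 to 335 in the later TNBS pools, against 453 and 465 in saline_w6 and 380 in saline_w10. Of these 10 markers, 8 were on the array and 2 (Sox10 and Uchl1) passed the minimum. S100b, Ret, Elavl4 and Snap25 were under the floor on every array, so these sums were read mostly from weak signals.

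The genes whose log2 signals over the 6 pools were most like those of each gene past the minimum were sought among 730 or 731 genes above the floor in every pool and with a range of at least 1 on the log2 scale over the pools, a choice that favours high correlations. They were Abca1 (r = 0.970), Tyrobp (0.951) and Psmb9 (0.950) for Vcam1. For Madcam1 they were St8sia4 (0.933), Cd53 (0.917) and Apbb1ip (0.900). For Edn1 they were Gne (0.975), Eif4b (0.973) and Anapc5 (0.970), so that Gne had signals of 1217, 807, 1643 and 1780 in TNBS_w6, TNBS_w8, TNBS_w10 and TNBS_w12, against 1563 and 1362 in saline_w6 and 1301 in saline_w10. With 6 pools and so many candidates these are descriptions of the order of pools.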

How the data were processed

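Colon RNA pools of TNBS and saline mice were hybridised to 7 Affymetrix arrays. The authors deposited linear signal intensities from Microarray Suite 5.0 and, per the labels, scaled each array to 150. The genome build is not given in the sources used here, and detection calls were not used here.

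Of 12488 probe sets, 66 controls and those with several symbols (396) or none (1193) in the 2016 platform annotation were left out. Where a gene had several probe sets, the brightest in mean log2 signal over the arrays stood for it. Signals under 50 were set to 50, the saline_w6 arrays were averaged, and genes whose highest pool reached 100 were kept. TNBS_w6 was compared with saline_w6 and later TNBS pools with saline_w10, with no test and a count at 2-fold. The pooled and interaction models used limma 3.58.1 under R 4.3.3 (intensity trend, two-sided, 3 and 2 residual degrees of freedom), with Benjamini-Hochberg adjustment over 4316 genes at 0.05. Only the pooled model was also run on simulated data, drawn with independent noise and without the floor. That run does not show how the model performs on these arrays. The number of arrays limits the precision.

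Genes were named by a rule: all 8 members, up to 4 genes a list with the largest week 6 difference past the minimum, and the 3 most like each member in log2 signal over the pools. Other list genes, such as those under the floor or the Itgb7 and Gne signals, were added after their values were seen. The members and lists were chosen with earlier results of these data known. Alternatives covered the floor, pseudocount, filter, scaling, probe set rule, control pool, covariate, trend and each left-out pool or array. Promoters came from the RefSeq table of GRCm38.p6, which held 5 of the 8 genes.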

Additional observations from a re-analysis of the deposited data

Results flagged for a closer look

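Edn1 lay on opposite sides of the same saline pool at 2 times after TNBS: -1.33 on the log2 scale at week 8 and 1.35 at week 12. Both probe sets had these directions. The weeks share saline_w10, each is 1 pool, and the difference between them was not tested.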

How the results depend on the processing

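The count of the 8 genes at least 2-fold different at week 6 was 1, and became 0 with a floor of 100, with log2(signal + 50) or with the mean of a gene's probe sets (Vcam1 was then below the minimum), and 2 against the other saline pool. At week 8 it was 2, and became 1 with a floor of 25, the mean of probe sets, the other saline pool, the probe set highest over pools (chosen after seeing the data) or without either saline_w6 array (1 to 1), and 0 with a floor of 100 or log2(signal + 50). At week 12 it was 1, and became 0 against the other saline pool and 2 with every probe set as a feature (chosen after seeing the data), both sets being of Edn1. The interaction called 0 of the 3 genes tested, and 1 with a floor of 100: Vcam1, at 0.64 with a limma adjusted p of 0.0102, where every other pool lay at the floor and 189 genes were called in all. The pooled test called none of the members it held (3, or 5 with no filter) under any alternative run.

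The Madcam1 pooled difference of 0.85 became -0.024 with a floor of 25 and -0.017 with log2(signal + 50), both of which pass the gene to its other probe set. Its interaction became -0.082 and -0.055 there, -0.010 with equal medians, and ran from -0.0090 (without TNBS_w10) to 0.23 (without TNBS_w8) with single pools or arrays left out. The Edn1 pooled difference ran from -0.55 (without TNBS_w12) to 0.22 (without TNBS_w8) with single pools or arrays left out, and was also above 0 without TNBS_w6 (0.21) or either saline_w6 array, and was 0.056 without the saline_w6 pool and 0.057 with the probe set highest over pools, the last of which, like leaving out a saline_w6 array, passes Edn1 to its second probe set. No paired analysis was possible because the labels number only the 2 arrays of the week 6 saline pool. Signals near the floor limit the 5 genes that did not reach the minimum, and Vcam1 and Madcam1 as well. With a floor of 100 the Vcam1 difference at week 6 fell from 1.28 to 0.64. The Madcam1 difference at week 8 fell from 1.03 to 0.03.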
